A study of Mus musculus with 2 samples.

Results

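The region described here is a stretch of mouse chromosome 10, from position 116400001 to 117400000 in the genome build mm8, cut into 1000 bins of 1 kb out of 2570739 such bins over the genome. It was chosen by its read counts, which were unusually high in these same libraries, so its high read density is given as a description, with no test. The reads come from chromatin immunoprecipitation and sequencing (ChIP-seq) of GPS2 in the 3T3-L1 line, mouse preadipocytes that turn into adipocytes after hormonal induction. One library was made at day 0, before induction, and one at day 6 of induction; both are the same cell line with anti-GPS2 antibodies, and neither the labels nor the files give a replicate. The labels name rabbit antibodies against peptides from either end of GPS2, but not which of them was used at which day. The day 0 library comprised 4258133 reads and the day 6 library 3543507. Comparing the days is therefore a comparison of 2 libraries, and every interval below is a 95% interval for counting error only.

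GPS2 is a subunit of the NCoR and SMRT corepressor complexes, which silence genes bound by nuclear receptors through histone deacetylation, and in fat cells it has also been tied to PPARG target genes. In ChIP-seq, reads come from bound fragments and also from a background of unbound chromatin. That background follows the number of DNA copies of a region as well as how easily its chromatin breaks, is recovered and is aligned. 3T3-L1 cells have been described as carrying extra copies of Mdm2, a chromosome 10 gene whose protein restrains the tumour suppressor p53. In the assembly GRCm38.p6 the protein-coding neighbours of Mdm2 are Cpm on one side and Slc35e3, Nup107 and Rap1b on the other. No gene annotation of mm8 was used here, so which genes lie in the stretch was not determined. No input library was analysed and copy number was not measured, so the word dense is used below in place of amplified.

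Reads in the stretch fell into separate dense blocks with a shallow but still raised level between and around them. In order along the chromosome there were a left shallow part of 277 kb, a small dense block of 19 kb, a gap of 84 kb, a main dense block of 418 kb and a right shallow part of 202 kb. These parts came from an exact least-squares segmentation of the 1 kb counts at day 0. A block was a run of segments at least 10-fold over the mean bin of the rest of chromosome 10, with holes shorter than 10 kb kept inside; this rule was set after the values were seen. Over the 125959 bins of the rest of the chromosome the median bin held 1 read at both days, and the mean bin 1.63 reads at day 0 and 1.37 at day 6. A fold over the median bin is therefore the same number as reads per kb, and folds over the mean are lower.

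**Figure D1:**
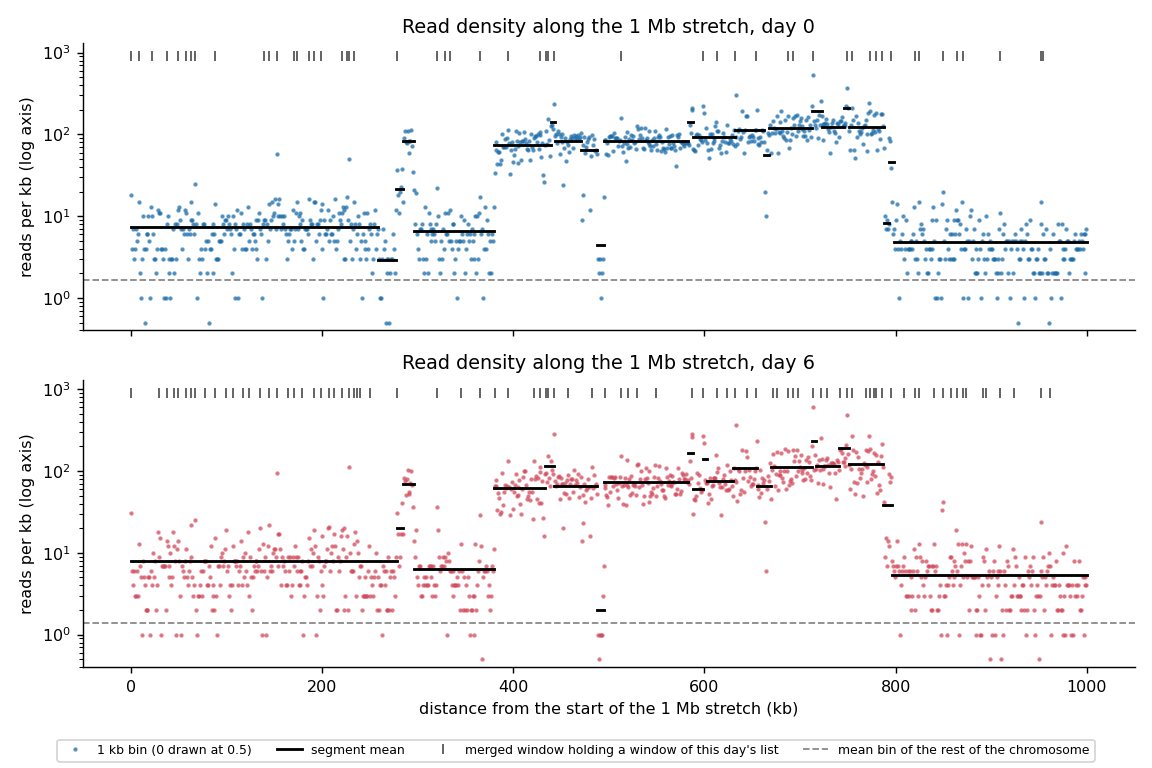
Reads per 1 kb bin (log axis, empty bins drawn at 0.5) along the 1 Mb stretch at day 0 (top) and day 6 (bottom), with segment means as black lines, merged windows of each day's list as ticks and the mean bin of the rest of the chromosome as a dashed line. The small block of 19 kb and the main block of 418 kb stand out at both days, and the shallow parts around them lie above the dashed line.

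The main block spanned 116780001 to 117198000, with 40611 day 0 reads and 37048 day 6 reads. That was 97.2 reads per kb at day 0 (96.2 to 98.1) and 88.6 at day 6 (87.7 to 89.5), or 59.5 and 64.6 times the mean bin of the rest of the chromosome. Its reads made up 0.954% of the day 0 library (0.945 to 0.963) and 1.05% of the day 6 library (1.03 to 1.06), on a length of 418 kb. Of its 418 bins, 400 held at least 20 reads at day 0 and 400 at day 6. Elsewhere on the chromosome 0.0937% of the bins reached 20 reads at day 0 and 0.156% at day 6. Its median bin held 91 reads at day 0 and 77 at day 6.

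The small block spanned 116677001 to 116696000, with 1088 day 0 reads and 921 day 6 reads, which is 57.3 reads per kb (53.9 to 60.8) and 48.5 (45.4 to 51.7). It was not even. Its first 8 kb held 21.8 reads per kb at day 0 and 18.5 at day 6, and its last 11 kb held 83.1 and 70.3. The last 11 kb thus reached the density of the left part of the main block, where the first segment of 59 kb held 75.0 reads per kb at day 0 and 65.8 at day 6.

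The parts between and beside the blocks were sparse against the blocks but not against the chromosome. The left shallow part held 7.13 reads per kb at day 0 and 7.90 at day 6, 4.36 and 5.75 times the mean bin of the rest of the chromosome. In the gap between the blocks the density was 6.58 reads per kb at day 0 and 6.29 at day 6, 4.03 and 4.58 times that mean. The right shallow part was lowest, with 4.82 and 5.41 reads per kb, 2.95 and 3.94 times the mean. With the bins that touch a listed window left out, here and on the rest of the chromosome, the left shallow part, the gap and the right shallow part stood 3.67, 3.92 and 2.80 times above the mean at day 0. The same values at day 6 were 4.47, 4.19 and 3.41.

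The limits of the 1 Mb stretch are no edges in the data. The 100 kb before it held 6.30 reads per kb at day 0 and 7.92 at day 6, against 6.20 and 6.91 in its first 100 kb. The last 100 kb held 4.09 and 4.47 reads per kb, and the next 100 kb 4.11 and 4.53. A segmentation of the whole chromosome in 5 kb bins, added after these values were seen, placed the left end of the shallow level at 116245001 at day 0 and 116250001 at day 6. To the right, the shallow level reached 118010000 at both days.

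The same segmentation found 3 more dense pieces on chromosome 10 at least 10-fold over its mean bin at day 0. One from 118014001 to 118027000, 816 kb to the right of the main block, lay at the end of the right shallow level and held 104 reads per kb at day 0 and 87.7 at day 6. One from 106617001 to 106661000, 10119 kb to the left of the main block, held 78.2 and 56.3 reads per kb. It was followed on its right by a shallow level of 4.21 reads per kb at day 0 over 1140 kb, to 107800000, and 3.91 at day 6 to 107805000. Between that point and the left end of the shallow level around the main block, 8445 kb stood at 0.905 times the chromosome's mean bin at day 0 and 0.824 times at day 6. The last piece, from 57616001 to 57630000, held 23.8 and 20.5 reads per kb. Of its 14 bins, 7 touch a listed window. The 7 free bins held 12.1 reads per kb at day 0 and 8.57 at day 6, only 7.92 and 6.98 times such bins of the rest of the chromosome. Outside windows, on 8 and 39 bins, the first 2 of these pieces stood 54.7 and 51.8 times above the rest of the chromosome at day 0. The main block stood at 56.6. At day 6 these pieces stood 53.1 and 47.0 times above it, further from the main block's 60.8. Whether these pieces are joined to the main block on the same DNA cannot be read from counts.

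**Figure D2:**
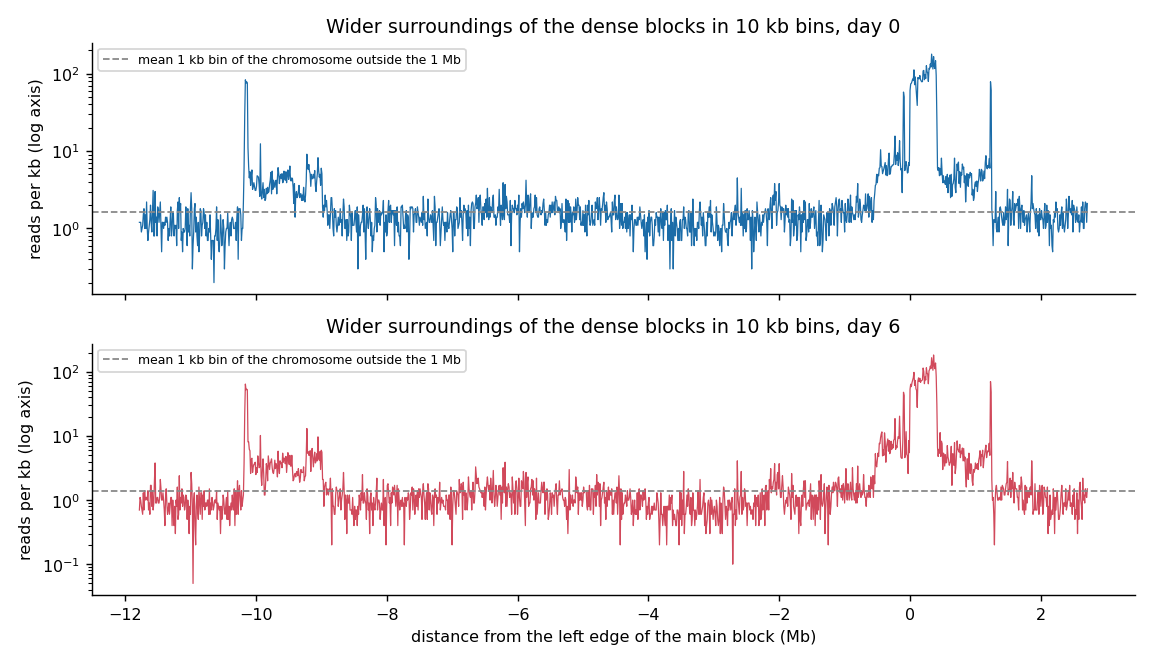
Reads per kb in 10 kb bins (log axis) against the distance from the left edge of the main block in Mb, at day 0 (top) and day 6 (bottom); the dashed line is the mean 1 kb bin of the chromosome outside the 1 Mb stretch. Dense pieces lie 10119 kb to the left and 816 kb to the right of the main block, each next to a shallow raised level, and the 8445 kb in between runs near the dashed line.

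In 1 kb bins, each day segmented alone, the main block began at 116780001 and the small block ended at 116696000 at both days. Around each edge of the day 0 segmentation, the change of read density was then placed to the base within 3 kb on either side, in the reads of either day. The bases of day 6 were thus searched only near those of day 0, and part of their closeness comes from that search. The range given with it holds all positions within 2 log-likelihood units of the best one. The left edge of the small block lay at 116678541 at day 0 (116678474 to 116678569) and at 116678533 at day 6 (116678453 to 116678728), 8 bp apart. Its inner step lay at 116685307 and 116685339, 32 bp apart, and its right edge at 116695500 and 116695341, 159 bp apart. All 3 pairs of ranges overlapped.

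The left edge of the main block lay at 116780365 at day 0 (116780074 to 116781463) and at 116779942 at day 6 (116779835 to 116780075), 423 bp apart with ranges that met. The bin before it held 13 reads at day 0 and 11 at day 6, and its first bin 34 and 65. At its right end the density fell at 117196192 at day 0 and 117196038 at day 6, 154 bp apart. The 1 kb bins had placed this end at 117198000 and 117196000.

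The main block had a hole of 7 kb, from 116888001 to 116895000. Only 31 reads lay there at day 0 and 14 at day 6, 4.43 and 2.0 reads per kb, against 64.5 reads per kb at day 0 in the segment before it and 83.7 in the segment after it. Its left edge lay at 116887776 and 116887738 and its right edge at 116894866 and 116894869, 38 bp and 3 bp apart between the days. The ranges overlapped on the right and not on the left. Of the 317 bins of both blocks that touch no window, 6 held at most 10 reads over both days together, and all 6 lay in this hole.

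A second hole, of 5 kb from 117188001 to 117193000, cut off the last dense piece of the main block. It held 8.20 reads per kb at day 0 and 11.4 at day 6. The segmentation of day 6 by itself made no step here, and ran 1 level of 39.0 reads per kb from 117187001 to 117196000. Placed around the day 0 edges, its left edge lay at 117187524 and 117187319, 205 bp apart, and its right edge at 117193176 and 117193078, 98 bp apart, and neither pair of ranges overlapped. What sets the holes was not tested.

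Within the main block the level was higher towards the right. In the bins that touch no window, 50 kb steps from the left edge held 72.4, 80.5, 65.1, 81.8, 84.2, 94.4, 123 and 113 reads per kb at day 0. The third of these steps contains the first hole. The same steps at day 6 held 58.9, 66.4, 53.7, 72.4, 69.9, 77.7, 108 and 108. Relative to window-free bins of the rest of the chromosome, the first step stood 47.2 times higher at day 0 and 48.0 times at day 6, and the seventh 80.0 and 88.3 times. The rise lay mostly in the seventh and eighth steps at both days. The last 18 kb, which contain the second hole, stood 27.1 and 29.6 times higher.

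Single levels were uncertain in number. The segmentation gave 20 levels at day 0 between the outermost segments at least 5-fold over the chromosome mean. That span takes in the small block and the gap. With the penalty per step doubled the segmentation gave 12, and with it 10 times larger 6. At day 6 the counts were 21, 10 and 5, over a span that also takes in the left shallow part. Between 10-fold edges, which leave that part out, day 6 gave 20.

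Bins rose and fell together at the 2 days. Across the 301 window-free bins of the main block, Pearson's r between the days was 0.906 and Spearman's rho 0.858, given as a description, since neighbouring bins and the ease of alignment are shared. Without the bins in the holes the values were 0.889 and 0.842 over 291 bins. Their spread was wider than counting error. The coefficient of variation without holes was 0.330 at day 0 and 0.401 at day 6, where counting alone gives 0.106 and 0.114.

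From day 0 to day 6 the stretch changed little. Over the 600 kb from 116600001 to 117200000, the read count went from 42782 to 39156, a ratio of day 6 to day 0 of 1.10 (1.08 to 1.12) per library read. In the bins that touch no window the ratio was 1.03 (1.02 to 1.05), against 0.962 (0.955 to 0.968) in such bins of the rest of the chromosome. By part, the window-free ratio was 1.03 (1.01 to 1.05) in the main block, 1.02 (0.928 to 1.11) in the small block and 1.03 (0.890 to 1.19) in the gap. It was 1.17 in both the left (1.06 to 1.29) and the right shallow part (1.04 to 1.31). Between cultures such ratios can vary by amounts that 1 library per day cannot show.

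The ratio was not the same along the main block. In its first 3 steps of 50 kb it was 0.978 (0.925 to 1.03), 0.992 (0.940 to 1.05) and 0.992 (0.932 to 1.05). In the fourth it was 1.06 (1.01 to 1.11), and in the fifth and sixth 0.998 (0.947 to 1.05) and 0.989 (0.940 to 1.04), so there was no steady change from left to right. In the seventh step it was 1.06 (1.01 to 1.11) and in the eighth 1.15 (1.09 to 1.20). The dense piece 10119 kb to the left went the other way, with a window-free ratio of 0.871 (0.825 to 0.920), and its interval does not meet that of the main block. The piece 816 kb to the right had 0.933 (0.831 to 1.05).

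**Figure D3:**
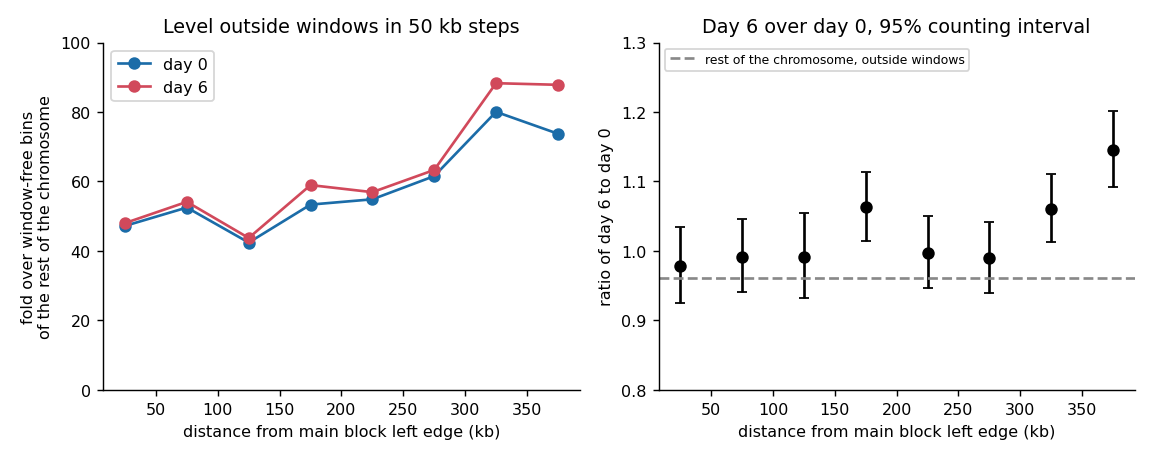
Left, read density of window-free bins in 50 kb steps of the main block, as fold over window-free bins of the rest of the chromosome, at both days. Right, the ratio of day 6 to day 0 in the same steps with 95% counting intervals, beside 0.962 for the rest of the chromosome (dashed); the eighth step, at 1.15, is highest.

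Plus-strand reads made up 50.4% of the reads in the main block at day 0 and 50.8% at day 6, against 53.9% and 53.7% on the rest of the chromosome. The other parts were also nearer to even than the rest of the chromosome, with at most 51.6%, in the left shallow part, at day 0 and from 48.9% in the gap to 52.2% in the small block at day 6. No interval was computed for these shares. The gap held only 553 and 528 reads and the small block 1088 and 921, so their shares are uncertain by counting error. Outside windows, opposite strands paired most often at 180 bp at day 0 and 170 bp at day 6 in the main block, close to the 180 bp of the rest of the chromosome at either day. The peak at that distance was 1.11 and 1.13 times the median over distances from 60 to 400 bp in the block. On the rest of the chromosome it was 1.43 and 1.52 times. All pairs of reads were counted, and the 2 regions were not compared at equal read density.

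The authors' lists of GPS2 windows, each 2000 bp wide, were crowded in the stretch. The day 0 list had 55 windows there and 337 on the rest of chromosome 10, where that is 2.68 per Mb. The day 6 list had 100 in the stretch and 1007 on the rest, there 7.99 per Mb. Crowding was not confined to the dense blocks: per Mb, the left shallow part held 79.4 day 0 windows and the blocks together 45.8. Joined where they overlapped, both lists gave 96 merged windows in the stretch, 39 of them in the blocks. Of those 39, 20 came from both lists, 19 from the day 6 list only and none from the day 0 list only. The labels do not give the thresholds behind the lists.

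In fold over their immediate surroundings, though not in excess reads, the windows in the blocks stood out far less than windows elsewhere. The fold over the flank is the read density in a merged window over the density within 5 kb on both sides, outside all windows. At day 0, 6 of the 39 block windows were at least 2-fold over the flank (15.4%, 5.86 to 30.5), against 64.5% of the merged windows of the genome and 62.6% of those on the rest of chromosome 10. At day 6 it was 12 of 39 (30.8%, 17.0 to 47.6), against 85.8% over the genome and 83.4% on the rest of the chromosome. The median fold in the blocks was 1.40 at day 0 and 1.63 at day 6. On the rest of the chromosome it was 2.50 and 3.85. In reads above the flank level, the median block window had 54.9 at day 0 and 74.2 at day 6, against 6.92 and 10.4 on the rest of the chromosome. A window with no excess over its flanks has a fold of 1. Under 1.5-fold were 24 of the 39 at day 0 (61.5%) and 18 at day 6 (46.2%). The shares were 23.3% and 6.29% over the genome, 25.8% and 7.18% on the rest of the chromosome, and 56.1% and 17.5% in the shallow parts. Such windows can still hold an excess: the one from 117086285 to 117088311 had 267 day 0 reads at 1.31-fold, 63.2 above the flank level.

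The shallow parts lay between the blocks and the chromosome in day 6 reads. Of their 57 merged windows, 14 were at least 2-fold over the flank at day 0 and 26 at day 6, with median folds of 1.45 and 1.98. Over the 600 kb from 116600001, which holds blocks and shallow bins, it was 9 of 53 at day 0 and 19 of 53 at day 6, with median folds of 1.40 and 1.76. Each list bears on the reads it was called from, both for the windows it holds and for those it leaves out. With that limit, the 19 block windows listed only at day 6 had a median fold of 1.20 in the day 0 reads, and 1 of the 19 reached 2-fold. On the rest of the chromosome the 725 windows listed only at day 6 had a median of 2.0 at day 0, and 50.6% reached 2-fold.

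**Figure D4:**
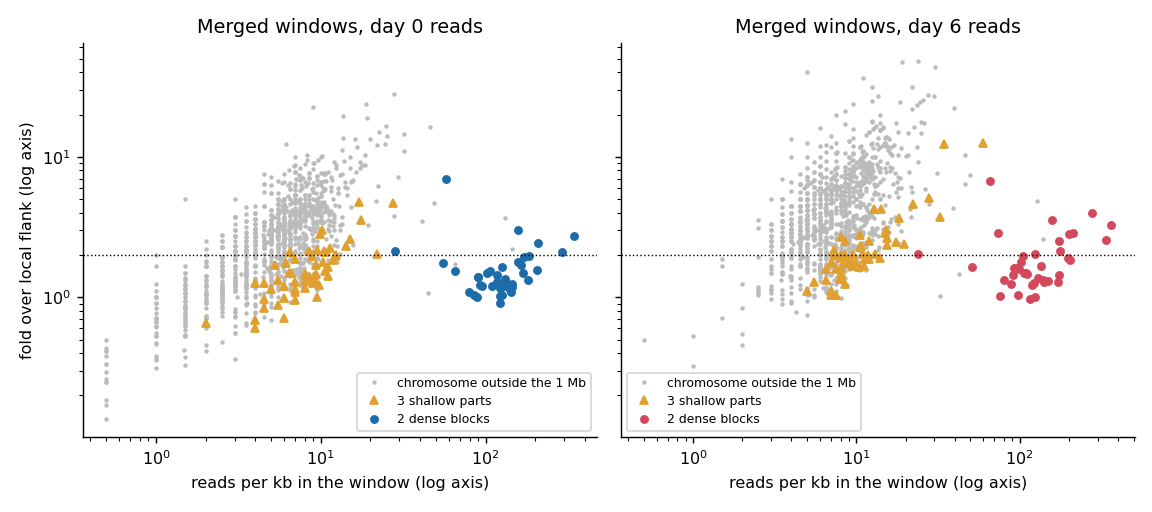
Fold over the local flank against reads per kb for merged windows of chromosome 10 (both axes log), in day 0 reads (left) and day 6 reads (right), with the dotted line at 2-fold. The 39 windows of the dense blocks lie far to the right, yet 33 of them at day 0 and 27 at day 6 are under the line.

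Ranked by read density, the block windows were among the highest of all 21227 merged windows, and ranked by fold they were not. At each day 36 of the 39 were among the 100 windows with the most reads per kb. None was among the 1000 with the highest fold over the flank at either day, where the best ranks were 1450 at day 0 and 5009 at day 6. Of any 39 windows few would lie among the first 1000 of 21227, so that count alone says little. The median ranks by fold were 16840 at day 0 and 19502 at day 6. Most reads in these windows were at the level of the flanks: the flank density accounts for 66.4% of the reads of the block windows at day 0 and 55.5% at day 6. It accounts for 61.4% and 42.2% in the shallow parts, and for 38.7% and 27.2% on the rest of the chromosome. Conversely, unlisted parts of the blocks were as rich in reads as listed windows elsewhere. Of 140 tiles of 2 kb in the blocks that touch no window, 137 held more day 0 reads than the median window on the rest of the chromosome, which held 12. The median tile held 173. The blocks were defined by their read density, so the ranks by density and these tile counts follow largely from that rule.

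At the listed windows of the blocks, the paired strand peaks of listed windows elsewhere were also seen. The lists were called from these same reads, so some enrichment at the centres is built in. For the block windows the reads of neither day are free of that selection. At listed windows, starts on the plus strand up to 200 bp upstream of the centre, and on the minus strand up to 200 bp downstream, were set against the level beyond 1 kb. At the 20 day 0 windows of the blocks, day 0 reads gave 4.20 times that level on the plus strand and 4.31 on the minus strand. At the same windows, all of which lie in merged windows of both lists, the reads of day 6 gave 5.56 and 5.70 times. At the 337 day 0 windows on the rest of the chromosome the values were 16.4 and 12.7 in day 0 reads and 12.3 and 9.06 in day 6 reads. In absolute terms the block windows were higher, with 201 plus-strand starts per kb and window before the centre at day 0, against 27.9 elsewhere.

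**Figure D5:**
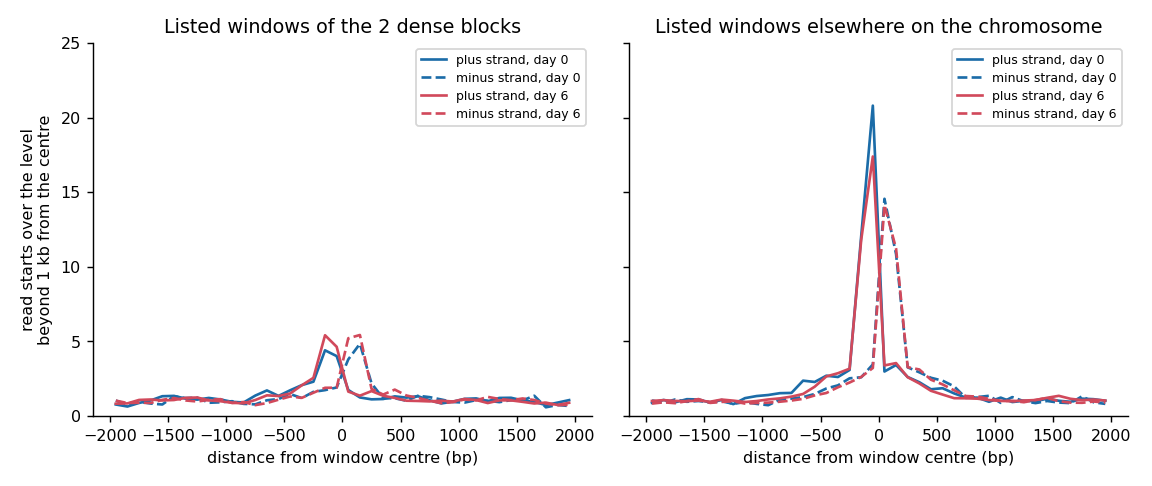
Read starts around the centres of listed windows (bp), each list with its own day's reads, divided by the level beyond 1 kb from the centre; solid lines are the plus strand and dashed lines the minus strand. The same pair of strand peaks appears in the blocks (left) as on the rest of the chromosome (right), at 4.20 against 16.4 times the outer level for the plus strand at day 0. The lists were called from these same reads.

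The window with the most reads in the blocks ran from 117112266 to 117114487 and was in both lists. It held 760 reads at day 0 and 810 at day 6, at 2.71 and 3.25 times its flanks. The next, from 117148386 to 117150410, held 586 and 688 reads, at 2.11 and 2.58 times. Both thus ranked in the first 6 of the genome by reads per kb at both days and stood only a few times above the reads beside them. A window from 116985999 to 116987998, in the day 6 list only, went from 417 to 552 reads and from 2.45 to 3.96 times its flanks, the largest fold at day 6 among block windows that hold no block edge. One from 117183712 to 117186893 held 500 and 502 reads, at 2.99 and 3.54 times. Most of its right flank lies in the second hole, so these folds are taken in part against sparse bins.

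At the low end were listed windows with little or no excess over their flanks. The window from 117096986 to 117098985, in the day 6 list, held 244 reads at day 0 and 233 at day 6, at 0.909 and 0.964 times its flanks. One from 117022512 to 117024511, also listed at day 6 only, held 178 and 152 reads, at 1.00 and 1.03 times. The window from 117178598 to 117180610 was in both lists with 1.16 and 1.04 times. By density alone these windows had 10 times or more the reads of the median window of the rest of the chromosome, which held 12 at day 0 and 15 at day 6.

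In 4 block windows an edge of the dense level lay inside the window at day 0; for one of them, at the left end of the main block, the day 6 edge lay before the window. The highest fold in the blocks, 6.96 at day 0 and 6.74 at day 6, belonged to the window from 117192944 to 117196803, which covers the last dense piece from its left edge at 117193176 to its right edge at 117196192. Its flanks fall in the second hole and in the right shallow part, with 83 reads at day 0 over 10000 bp. The other 3 lay at the left edge of the small block (116677940 to 116679963), the left edge of the main block (116780121 to 116782120) and the right edge of the first hole (116894293 to 116897903). Their folds were 2.15, 1.76 and 1.53 at day 0 and 2.04, 2.89 and 1.64 at day 6. Without these 4 windows, 4 of 35 block windows were at least 2-fold over the flank at day 0 and 9 of 35 at day 6, and the highest folds were 2.99 and 3.96. The 2.99 belongs to the window from 117183712, whose right flank lies mostly in the second hole. That window is also counted among the 4 and the 9.

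Between the days, the windows in the blocks rose less in reads than windows elsewhere. Windows were counted as changed when the ratio was 2 or more, or 0.5 or less, and one library had 10 reads or more. By this rule none of the 39 block windows was higher at day 6 and none lower, against 31.4% higher and 2.08% lower over the genome. These shares are not on the same footing. Flank density accounts for 66.4% of the block windows' reads at day 0, so their excess must rise further to reach a ratio of 2. Windows elsewhere hold few reads, a median of 12 at day 0 on the rest of the chromosome, so counting error moves their ratios more. The lists matter too: on the rest of the chromosome 330 of the 358 windows counted as higher were listed only at day 6. Of the 241 windows there in both lists, 27 were higher. In the shallow parts 14 of 57 were higher and none lower. Summed, the block windows had a ratio of 1.26 (1.22 to 1.29), the windows of the shallow parts 1.62 (1.51 to 1.75) and those on the rest of the chromosome 1.59 (1.56 to 1.63). After subtraction of the flank density the ratios were 1.66, 2.43 and 1.89, for which no interval was computed. Without that subtraction, windows in both lists had 1.27 (1.22 to 1.31) in the blocks and 1.35 (1.31 to 1.40) on the rest of the chromosome. Windows of the rest listed only at day 6 had 1.97 (1.91 to 2.03), and those listed only at day 0 had 0.785 (0.719 to 0.857). The fold over the flank was higher at day 6 than at day 0 in 34 of the 39 block windows, with a median ratio of folds of 1.20, and in 827 of 1058 windows on the rest of the chromosome, with a median of 1.61. In the blocks 19 windows were listed only at day 6 and 0 only at day 0, and on the rest of the chromosome 725 and 92. A higher fold at day 6 is thus partly built in by the lists, and the ratio of folds was not split by list.

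The windows highest over their flanks at day 6 lay in the shallow parts, and are named after their values were seen. Reads between 116627573 and 116629577 numbered 55 at day 0 and 120 at day 6, for a ratio of 2.62 (1.89 to 3.68), and the fold over the flanks went from 4.72 to 12.6. Reads between 117248054 and 117250225 numbered 37 and 75, for a ratio of 2.44 (1.62 to 3.72), and the fold went from 4.73 to 12.3. Both windows were in both lists. In the blocks the largest ratio was 1.62 (1.25 to 2.09), at the window at the left end of the main block, where 110 reads became 148. The next was 1.59 (1.40 to 1.81), at the window from 116985999. The smallest was 0.937 (0.768 to 1.14), at the window over the right edge of the first hole.

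On chromosome 10 both libraries hold at most 1 read per position and strand, which limits how many reads dense sites can show. In the main block 4.86% of all positions and strands held a read at day 0 and 4.43% at day 6, so the block as a whole was far from full. The window from 117112266 was filled to 17.1% and 18.2%. The densest single bin held 529 reads at day 0 and 607 at day 6. With a correction for filled positions, the counts of windows at least 2-fold over the flank in the 600 kb moved by less than 1.5 times.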

How the data were processed

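The authors deposited aligned reads and a list of windows for each library, as positions without counts. Bowtie, HOMER and the build mm8 are named in the submitters' processing notes; versions, settings and any control: not given in the sources used here. The deposited score column of the reads holds the same value in every line. Every read is 36 bases long, and no start and strand occurs more than once on chromosome 10. The 5-prime ends of all reads were counted in 1 kb bins (Python 3.11.15, numpy 2.4.6, scipy 1.17.1). Counts, as 2 sqrt(count + 0.375), were segmented exactly by least squares, with at least 5 bins per segment and a penalty per step of 3 ln(n) times the noise variance; tested on simulated data, it placed most steps to within 1 bin but often added levels that were not there. For windows, ends were moved by 90 bp (day 0) or 85 bp (day 6), and windows overlapping by at least 1 bp were joined and placed by their midpoint. Folds needed 2 kb of free flank.

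The members, parts and rules were chosen with earlier results of these data known. The regions named in the text are the edges and levels, the block windows with the most reads, the highest or lowest folds and the largest or smallest ratios among those with at least 20 reads in one library, in part given by range. Intervals are exact Poisson (levels), Clopper-Pearson (shares) and conditional binomial (ratios). A count of 0 allows 3 reads, 7.05e-05% of the day 0 library and 8.47e-05% of the day 6 library. Reads copied from the same molecule are told apart only by position. Alternatives covered bin width, penalty, windows left out, background, flank width, fold, shift, scaling and filled positions.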

Additional observations from a re-analysis of the deposited data

How the results depend on the processing

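No paired analysis was possible because each day has 1 library. Alternatives with the word added were chosen once the data had been seen. For values that changed the cause was not tested, except that fewer bins, a higher penalty or a stricter fold give fewer levels or windows by construction. By the rule written at the outset, edges enclosed segments at least 5-fold over the chromosome mean. That gave 116677001 to 117198000 at day 0, but 116400001 to 117196000 at day 6, where the left shallow part itself passed 5-fold. At 10-fold (added) the left edge at day 6 was 116678001.

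Between the 5-fold edges the stretch stood 81.1 times above the median bin at day 0. It was 49.6 against the mean bin, 57.9 against 10 kb bins, 71.4 without windows, 83.6 with filled positions corrected and 71.3 over the 600 kb. At day 6 the value was 51.1, and in the same order 37.2, 46.4, 45.2, 52.7 and 65.3, and 74.3 between 10-fold edges (added).

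The left edge at day 0 moved to 116542501 with 500 bp bins, 116685001 with the penalty 10 times larger and 116680001 without windows. At day 6 it was 116680001 without windows. The right edge at day 0 moved to 117196000 with 500 bp bins, 117215000 with 5 kb bins, and 117188000 both with the larger penalty and without windows. At day 6 it was 117215000 with 5 kb bins and 117187000 with the larger penalty.

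The number of levels between the 5-fold edges was 20 at day 0. It was 35 with 500 bp bins, 11 with 5 kb bins, 12 with the penalty doubled, 6 with it 10 times larger and 12 without windows. At day 6 it was 21, and 35, 8, 10, 5 and 9.

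The windows of the 600 kb at least 2-fold over the flank numbered 9 at day 0, and 20, 3 and 2 at 1.5-fold, 3-fold and 4-fold. At day 6 they were 19, and 32, 8 and 3, and 12 in the blocks only (added). The ratio of day 6 to day 0 over the 600 kb, 1.10, was 1.15 scaled by reads outside windows and 1.03 in reads outside windows. With other flank widths, unshifted ends or filled positions corrected, the median fold over the flank ranged from 1.39 to 1.42 at day 0 and from 1.70 to 1.83 at day 6. In all, 40 alternative values were within these limits and 41 moved. At about 1 to 2 reads per kb, most of the chromosome is too thinly covered for 1 kb bins to show small steps in level.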
